A study of Mus musculus with 17 samples.

Results

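Blood of mice exposed to 1.0 Gy of X-rays was compared with blood of mice exposed to 0.5 Gy, 24 h after exposure. The 8 arrays of these groups, 4 per dose, were taken by their labelled dose from the 17 arrays of the series. All mice were female C57BL/6JJcl, an inbred laboratory strain, were 8 weeks old and were irradiated over the whole body. The 5 unirradiated control mice, of the same strain, sex and age, are given only for reference, and the 4 mice of 3.0 Gy entered only the estimate of the spread. Blood was taken straight into an RNA-preserving tube, and RNA of each mouse was read on 1 Affymetrix mouse genome array, so that whole blood with all its cells, reticulocytes and platelets was measured and no cell type was sorted. The labels call the mice of a group biological replicates. Levels are log2 RMA values as deposited (RMA, robust multi-array average, background correction, quantile normalization across arrays and a summary over probes), so a difference of 1 is a factor of 2. Of 45101 probe sets, 34945 carried 1 gene symbol and stood for 18193 genes. A gene was read from its brightest probe set and tested if that set lay above the 50th percentile of its array in at least 4 arrays, which left 12696 genes.

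X-rays break DNA and stabilise the transcription factor p53, which raises genes of cell cycle arrest and cell death, most readily in lymphocytes. Blood also holds reticulocytes, the youngest red cells, which still carry RNA for haemoglobin, mitochondria and their removal, and platelets, which carry RNA from the megakaryocytes that shed them. Irradiation of bone marrow cuts the supply of new reticulocytes early, since their precursors divide fast, while platelets already in the blood live on for days. Type I interferons act through the JAK-STAT pathway and the factor ISGF3 on a shared set of antiviral genes, which can also be switched on when damaged DNA reaches the cytosol.

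The arrays were checked before the comparison. Of 33 defining markers of blood cell types, 25 passed the filter on low values. They included Cd79a, Cd79b and Ms4a1 of B cells, Cd3d and Cd3e of T cells, S100a8 and Csf3r of neutrophils, Csf1r of monocytes, Pf4 and Itga2b of platelets and Alas2 of red cells. Hba-a1 and Xcr1 did not pass, and the other 6 were not analysed here. Of the 25 markers 2 reached an unadjusted p under 0.05, against 5.79% of all genes in either direction. They were Itga2b (1.0 minus 0.5 Gy, 0.44) and S100a8 (-0.63). Replicate 3 of 1.0 Gy stood apart from its group, because its mean correlation over all probe sets was 0.983 with the other 1.0 Gy arrays and 0.989 with the 0.5 Gy arrays. For replicate 2 of 0.5 Gy the mean correlations with its own and with the other dose were both 0.987, and in 4 of the 8 arrays the correlation was not higher with the own group. Control probe sets for 18S ribosomal RNA lay at 12.69 ± 0.77 (SD, n = 4) at 0.5 Gy and 13.28 ± 0.28 at 1.0 Gy. They lay at 10.52 ± 0.49 (n = 5) in controls and between 10.50 and 10.84 in the arrays of 3.0 Gy, so the 18S level did not follow the order of dose. Control levels given for reference below lie across this gap in 18S, and its part in them was not tested. Between 0.5 and 1.0 Gy the 18S level differed by 0.59 (two-sided exact permutation p = 0.229, adjusted over 4 array measures 0.686, where the smallest p of 70 regroupings is 0.0286). The part of this 18S difference in the results was not tested beyond a fit with the 18S level as a covariate, in which no gene passed the limma adjusted threshold and 6.09% had an unadjusted p under 0.05.

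Only 2 of 12696 genes differed between the doses at an adjusted p under 0.05 (0.0158%), and both fell at 1.0 Gy. They were Glrx5, a mitochondrial glutaredoxin of iron-sulfur cluster assembly, and Hagh, the glyoxalase II enzyme of methylglyoxal detoxification. No gene was called higher (0%). At an unadjusted p under 0.05 there were 735 genes (5.79%), close to the share that this threshold gives with no difference at all, with 401 higher (3.16%) and 334 lower (2.63%) at 1.0 Gy. An adjusted p under 0.1, a looser limit added with the data in hand, was met by 24 genes (0.189%), with 5 higher and 19 lower. Differences were small for most genes, since 95% of them lay between -0.32 and 0.41 with a median of -0.00, and the median standard error was 0.15. The 4 arrays of 1.0 Gy lay wholly above those of 0.5 Gy for 301 genes (2.37%) and wholly below for 250 (1.97%). A count of 2 depended on single mice, because it became 42 (0.331%, 20 higher and 22 lower) without replicate 3 of 1.0 Gy and 0 without any 1 of replicates 1, 3 and 4 of 0.5 Gy and 1, 2 and 4 of 1.0 Gy. It was 9, 17, 12 and 6 without replicate 1 or 3 of the controls or replicate 2 or 3 of 3.0 Gy, arrays that enter the fit through the spread. With replicate 2 of 0.5 Gy and replicate 3 of 1.0 Gy both left out, an alternative chosen after these arrays were seen to stand apart, 46 genes were called (0.362%), and the shares at an unadjusted p under 0.05 were 9.19% higher and 7.5% lower. In that fit 52 of 63 interferon and 21 of 35 monocyte genes were higher at that limit. So were 13 of 36 mature neutrophil, 9 of 17 MHC class I, 12 of 46 platelet and 11 of 35 p53 target genes. Of 40 red cell genes 13 were lower and 2 higher, and 1 mature neutrophil gene was lower.

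**Figure D1:**
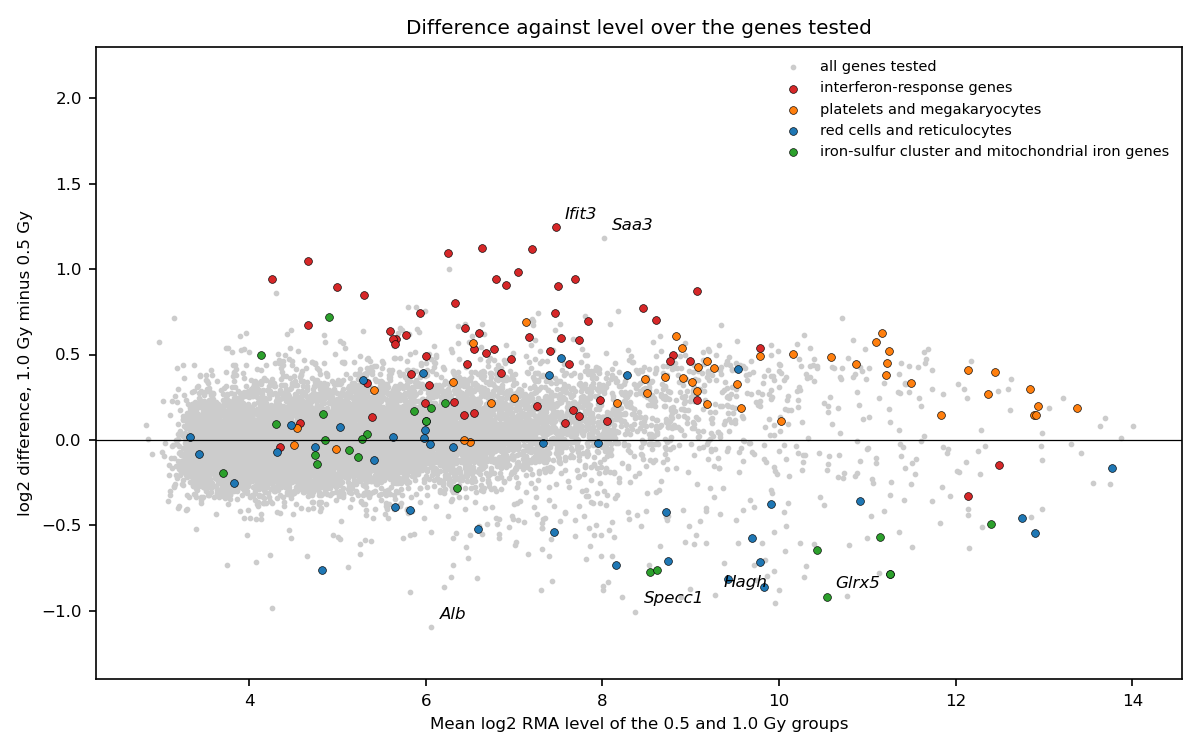
Difference of group means (1.0 Gy minus 0.5 Gy, log2) against the mean log2 RMA level of both groups, 1 point per gene tested, with members of 4 gene lists coloured. Interferon-response and platelet genes lie mostly above 0, whereas the abundant members of the red cell and iron-sulfur lists lie mostly below it.

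Glrx5 read 11.10, 10.82, 11.15 and 10.94 in the 4 mice of 0.5 Gy and 10.00, 10.04, 10.27 and 10.03 in those of 1.0 Gy. The lowest mouse of 0.5 Gy lay above the highest of 1.0 Gy, and all 5 controls lay higher still, between 11.44 and 12.01. Glrx5 fell by 0.92 ± 0.13 (log2, SE; 95% interval -1.19 to -0.65), a factor of 1.89, with an limma adjusted p of 0.0129. Hagh read 9.81, 9.51, 9.91 and 9.70 at 0.5 Gy and 8.77, 8.65, 9.11 and 8.75 at 1.0 Gy. Again the groups did not overlap, and the controls lay between 10.17 and 10.75. Hagh fell by 0.91 ± 0.14 (limma adjusted p = 0.0194), and all 3 of its probe sets were lower at 1.0 Gy. Without any 1 of replicates 1, 3 and 4 of 0.5 Gy and 1, 2 and 4 of 1.0 Gy neither gene passed the threshold, with limma adjusted p-values up to 0.114 for Glrx5 and 0.161 for Hagh, while the differences stayed between -0.98 and -0.87 for Glrx5 and between -1.01 and -0.85 for Hagh.

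Hagh acts directly after Glo1, glyoxalase I, in the detoxification of methylglyoxal. Glo1 read 8.37, 8.30, 8.78 and 8.36 at 0.5 Gy and 7.38, 7.54, 7.72 and 7.64 at 1.0 Gy, with no overlap. The difference was -0.88 ± 0.16 and did not pass the threshold (limma adjusted p = 0.0652), and 3 of its 4 probe sets had the same sign. With its probe sets averaged the difference was -0.22 (limma adjusted p = 0.852), whereas after repeated quantile normalization it was -1.0 (limma adjusted p = 0.0179). Prxl2a, a peroxiredoxin-like protein with a redox-active motif, was lower by 0.82 ± 0.14 (10.14 ± 0.14 against 9.33 ± 0.20, adjusted p = 0.0637). Dhrs11, a short-chain dehydrogenase, had a difference of -0.87 ± 0.16 (9.43 ± 0.18 against 8.55 ± 0.34, adjusted p = 0.0763). With Glrx5 and Hagh these are the 5 genes with the smallest p on the lower side, and the controls lay above both irradiated groups for each of them, with means of 9.08 for Glo1, 10.93 for Prxl2a and 10.19 for Dhrs11.

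**Figure D2:**
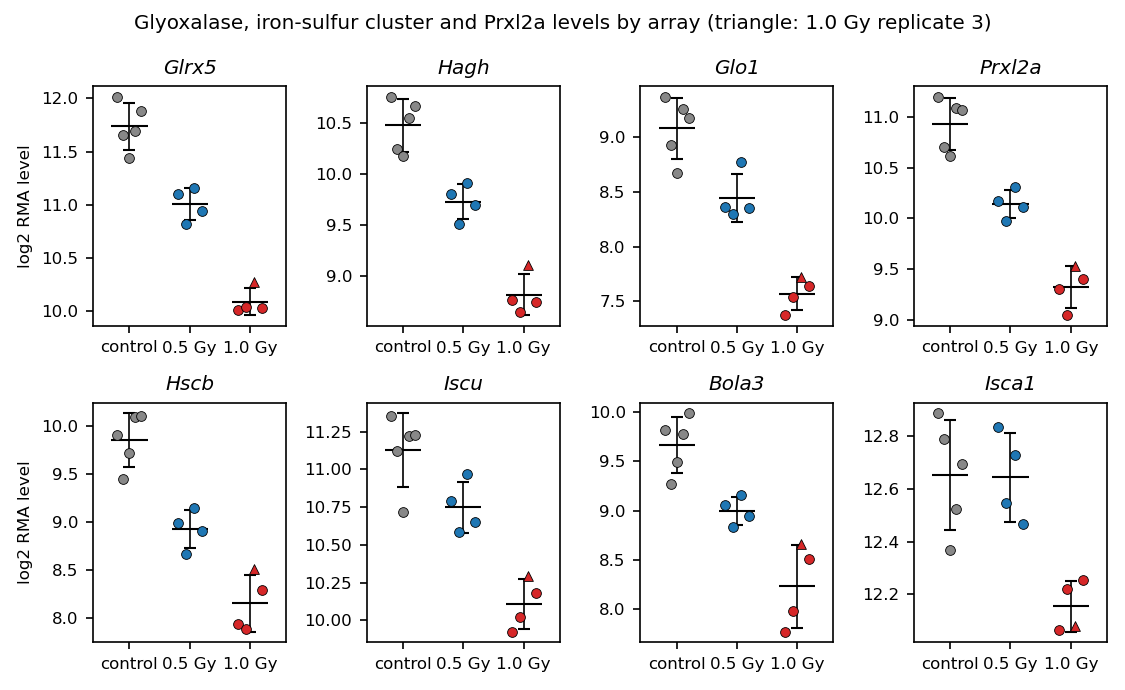
Log2 RMA level of 8 genes in each mouse, with 5 controls, 4 mice of 0.5 Gy and 4 of 1.0 Gy; long bars are means, error bars SDs and the triangle is replicate 3 of 1.0 Gy. In each of the 8 panels the points of 1.0 Gy lie below those of 0.5 Gy, by 0.92 on average for Glrx5 and 0.49 for Isca1, whose points at 0.5 Gy overlap the controls.

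Iron-sulfur clusters are built in mitochondria on the scaffold Iscu, passed on with the help of the co-chaperone Hscb and of Glrx5, and inserted into target proteins with Bola3 and Isca1. Of 24 tested genes of iron-sulfur clusters and mitochondrial iron, 1 was called, Glrx5, against 0.0158% of all genes. Without replicate 3 of 1.0 Gy 4 were called lower and 1 higher (0.331% of all genes), without replicate 3 of the controls 2 were called lower, and without replicates 1, 3 or 4 of 0.5 Gy or 1, 2 or 4 of 1.0 Gy none was. At an unadjusted p under 0.05, 7 were lower (2.63% of all genes) and 1 higher (3.16%), the latter 2 without replicate 2 of 0.5 Gy or replicate 3 of 1.0 Gy, and 6 of the 24 had all arrays of 1.0 Gy below all of 0.5 Gy (1.97% of all genes). The median difference over the list was -0.07, against -0.00 over all genes, with 14 members below 0 and 10 above.

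Hscb read 8.99, 8.67, 9.15 and 8.91 at 0.5 Gy and 7.94, 7.89, 8.51 and 8.29 at 1.0 Gy, a difference of -0.77 ± 0.16 (limma adjusted p = 0.0795). Iscu read 10.79, 10.59, 10.97 and 10.65 at 0.5 Gy against 9.93, 10.02, 10.30 and 10.18 at 1.0 Gy, a difference of -0.64 ± 0.14 (limma adjusted p = 0.0834). In both genes the doses did not overlap. Bola3 differed by -0.76 ± 0.18 (adjusted p = 0.134; -0.32 with its probe sets averaged) and Isca1 by -0.49 ± 0.14 (adjusted p = 0.367). The mitochondrial iron importer Slc25a37 and the ferritin-recycling receptor Ncoa4, both named after their values were seen, differed by -0.78 ± 0.34 and -0.57 ± 0.22 (-1.02 in the most variable probe set of Ncoa4). Hfe, an upstream regulator of the iron hormone hepcidin, was the member on the other side. It lay at 4.54 ± 0.26 at 0.5 Gy and 5.26 ± 0.40 at 1.0 Gy (adjusted p = 0.272; a difference of 0.43 with its probe sets averaged), with replicate 3 of 1.0 Gy at 4.68 inside the range of 0.5 Gy and the controls at 6.06 ± 0.18. In bulk blood, fewer cells of a type and less RNA per cell cannot be told apart, and this holds for every list described here.

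Many genes of the interferon response were higher at 1.0 Gy before adjustment. Of 63 tested members, 37 were higher at 1.0 Gy at an unadjusted p under 0.05 (58.7%, against 3.16% of all genes) and none was lower, although no member passed the adjusted threshold. The median difference was 0.54, against -0.00 over all genes, 60 of 63 members lay above 0, and in 16 the arrays of 1.0 Gy all lay above those of 0.5 Gy (2.37% of all genes). The mean level of the list was 6.64, 6.87, 6.68 and 6.62 in the mice of 0.5 Gy and 7.45, 7.33, 6.74 and 7.46 in those of 1.0 Gy. Thus 3 mice of 1.0 Gy lay above all mice of 0.5 Gy, whereas replicate 3 lay among them, and the controls lay between 6.30 and 6.71. Without that mouse 47 members were higher at an unadjusted p under 0.05 (5.88% of all genes), 12 of them passed the adjusted threshold (0.331% of all genes in either direction) and the median was 0.70. Over the 17 fits that leave out 1 array the count stayed between 32 and 47.

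Short stretches upstream of 3 members that lay among the higher ones are shown because they hold the core of the interferon-stimulated response element, the sequence that ISGF3 and interferon regulatory factors bind. They come from RefSeq with coordinates of GRCm38.p6, lie just before the annotated gene start, and capitals mark each match to GAAANNGAAA, a pair of GAAA half-sites 2 bases apart, searched on both strands from 250 bases before to 50 after the start, where matches may overlap. The Ifit3 stretch is chr19:34583358-34583431 (+ strand, matches beginning 156 and 122 bases before the start), that of Ifit1 is chr19:34640770-34640828 (+ strand, 104 and 85 bases), and that of Oas1a is chr5:120907526-120907560 (- strand, 20 and 14 bases).
Ifit3: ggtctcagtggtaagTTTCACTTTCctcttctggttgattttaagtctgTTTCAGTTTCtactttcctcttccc
Ifit1: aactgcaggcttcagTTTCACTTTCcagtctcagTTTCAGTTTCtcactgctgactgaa
Oas1a: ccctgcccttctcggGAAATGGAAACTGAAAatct
This motif lay in 3.44% of all 32851 promoter windows. Counted by gene, it lay in a window of 3.99% of the 27025 genes with a window. By the same count it lay in 21 of the 50 tested members of the list with a window and in 15 of the 26 of those at an unadjusted p under 0.05. A match describes the letters and does not show binding.

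Ifit3, an RNA-binding antiviral protein, read 6.97, 6.85, 6.96 and 6.65 at 0.5 Gy and 8.55, 8.08, 7.2 and 8.57 at 1.0 Gy, with 5.46 ± 0.09 in controls (n = 5). All 4 mice of 1.0 Gy lay above all 4 of 0.5 Gy, the nearest being replicate 3, and the difference of 1.25 ± 0.23 (a factor of 2.37, limma adjusted p = 0.0763) was the largest of all genes on the higher side. Without replicate 3 it was 1.55 ± 0.17 (limma adjusted p = 0.000746). Ifit1, a close relative that binds RNA without the methyl marks of host caps, read 6.83, 6.40, 6.79 and 6.55 against 8.07, 7.62, 6.91 and 8.43, a difference of 1.12 ± 0.24 (adjusted p = 0.101). Oas2, which makes the activator of the nuclease RNase L, differed by 0.74 ± 0.15 (adjusted p = 0.0795). Its relatives Oasl1, which lacks that activity and restrains Irf7 translation, and Oas1a differed by 1.12 ± 0.23 (adjusted p = 0.0795) and 0.98 ± 0.23 (adjusted p = 0.134).

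Among sensors and regulators, Zbp1, a sensor of Z-form nucleic acids that can trigger necroptosis, read 6.03, 6.26, 6.11 and 6.09 at 0.5 Gy and 6.96, 6.78, 6.48 and 6.89 at 1.0 Gy. Its groups did not overlap, and the difference was 0.65 ± 0.14 (limma adjusted p = 0.0795), while the controls, between 5.80 and 6.11, overlapped the mice of 0.5 Gy. Usp18, which removes ISG15 and dampens interferon receptor signalling, read 5.78, 5.61, 5.84 and 5.58 against 7.24, 6.63, 5.84 and 7.49. Replicate 3 of 1.0 Gy lay at the top of the 0.5 Gy range, and the difference was 1.10 ± 0.24 (adjusted p = 0.1), or 1.42 without that mouse (limma adjusted p = 0.00105). Parp12, an antiviral mono-ADP-ribosyltransferase, differed by 1.05 ± 0.27 (4.15 ± 0.26 against 5.19 ± 0.61), Rtp4 by 0.90 ± 0.20 (0.46 with its probe sets averaged) and Cmpk2 by 0.91 ± 0.23 (0.53). Ifit1, Oas1a, Usp18, Parp12, Rtp4 and Cmpk2 were named after their values were seen.

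Not every interferon gene followed. Irf7, the regulator that amplifies type I interferon production, lay at 8.00 ± 0.22 at 0.5 Gy, 8.11 ± 0.21 at 1.0 Gy and 8.61 ± 0.26 in controls, with a difference of 0.11 (95% interval -0.25 to 0.47). Rsad2, the antiviral enzyme viperin, lay at 12.30 ± 0.22, 11.97 ± 0.25 and 12.31 ± 0.44, with a difference of -0.33 (95% interval -0.81 to 0.15), and all 3 of its probe sets had that sign. Irf1, a factor that interferon gamma raises, differed by 0.14 ± 0.15. These genes overlapped between the doses and were chosen after their values were seen.

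**Figure D3:**
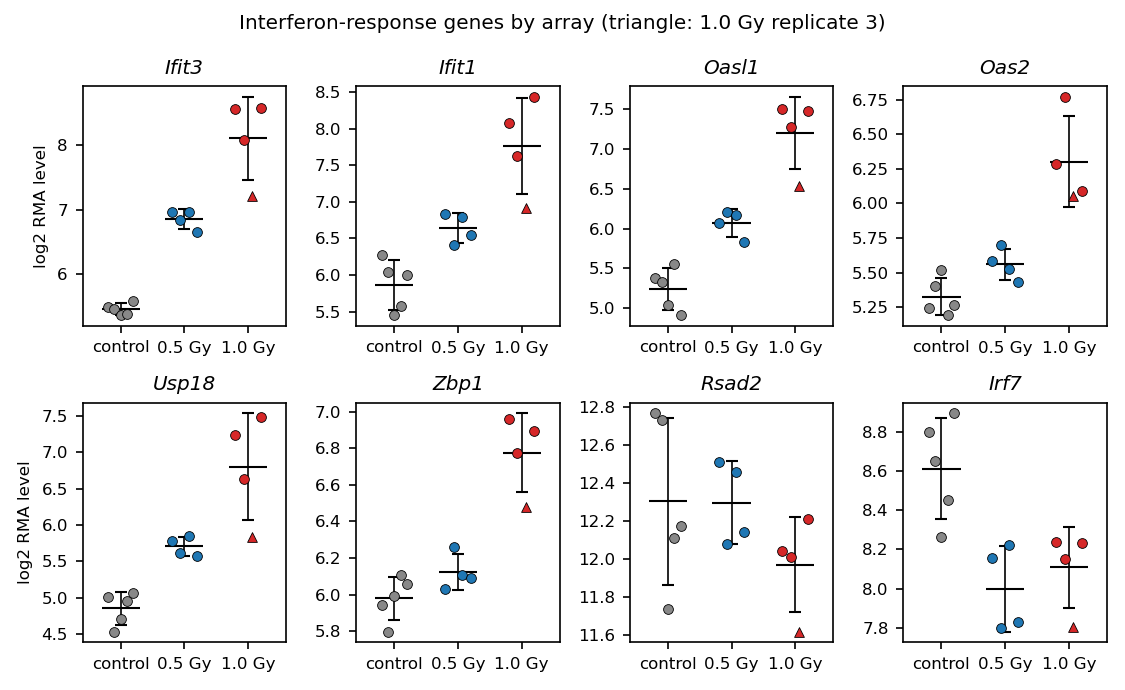
Log2 RMA level of 8 interferon-response genes in each mouse, with means (long bars) and SDs; the triangle is replicate 3 of 1.0 Gy. For Ifit3 that mouse lies at 7.2, between the 0.5 Gy mice and the other 1.0 Gy mice, and Rsad2 and Irf7 show no separation of the doses.

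Platelet genes were higher at 1.0 Gy in part. Of 46 tested platelet and megakaryocyte genes, 15 were higher at an unadjusted p under 0.05 (32.6%, against 3.16% of all genes), none was lower, and none passed the adjusted threshold. The median difference was 0.34, 42 members lay above 0, and in 12 the arrays did not overlap (2.37% of all genes). The mean level of the list lay between 9.16 and 9.34 at 0.5 Gy and read 9.69, 9.38, 9.52 and 9.71 at 1.0 Gy, so that every mouse of the higher dose lay above every mouse of the lower dose. The controls lay lower, between 7.86 and 8.26. The count of 15 became 8 without replicate 2 of 0.5 Gy (7.71% of all genes in either direction) or replicate 1 of 1.0 Gy (3.02%). It was 6 without replicate 4 of 1.0 Gy (4.06%).

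The members with the smallest p were a signalling adaptor and surface receptors. Fermt3, kindlin-3, which activates integrins, read 10.69, 10.88, 10.85 and 10.81 at 0.5 Gy and 11.77, 11.14 and 11.60 in replicates 1, 2 and 4 of 1.0 Gy, with replicate 3 lower but still above all mice of 0.5 Gy, and differed by 0.57 ± 0.17 (limma adjusted p = 0.378), or 0.29 with its probe sets averaged. Gp1bb, a subunit of the von Willebrand factor receptor, differed by 0.63 ± 0.20 (adjusted p = 0.501), also without overlap. Selp, P-selectin, which moves from granules to the surface on activation, read 6.63, 6.6, 6.72 and 7.2 against 7.92, 7.94, 6.78 and 7.29, so that replicate 3 of 1.0 Gy lay within the range of 0.5 Gy, and its difference of 0.69 was 0.38 with its probe sets averaged. Further members named after their values were seen were Thbs1, a granule glycoprotein (0.50 ± 0.20), the integrin subunit Itga2b (0.44 ± 0.20), coagulation factor F5 (0.54 ± 0.20), the guanine nucleotide exchange factor Rasgrp2 (0.46 ± 0.16) and Pde5a, a cyclic GMP phosphodiesterase (0.57 ± 0.22). The abundant chemokines Pf4 and Ppbp differed by 0.20 ± 0.16 and 0.19 ± 0.15, with 95% intervals of -0.14 to 0.54 and -0.13 to 0.50.

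Red cell genes split into a larger group that was lower at 1.0 Gy and a small group that was higher. Of 40 tested red cell and reticulocyte genes, 16 were lower (2.63% of all genes) and 4 higher (3.16%) at an unadjusted p under 0.05, none passed the adjusted threshold, and the median difference was -0.10. In 12 members all arrays of 1.0 Gy lay below those of 0.5 Gy (1.97% of all genes), and in 3 all lay above (2.37%). The mean level of the list lay between 7.39 and 7.58 at 0.5 Gy and read 7.18, 7.23, 7.41 and 7.39 at 1.0 Gy, where replicates 3 and 4 fell within the range of 0.5 Gy. The count of 16 lower genes became 10, 7 and 9 without replicate 1 or 3 of 0.5 Gy or replicate 1 of 1.0 Gy. In those fits 4.23%, 4% and 3.02% of all genes reached that limit in either direction. The lower count was 9 with the 18S level as a covariate (6.09% in either direction) and 13 without replicate 3 of 1.0 Gy (5.07% of all genes lower). The 4 higher genes became 1 to 2 without replicate 2 of 0.5 Gy or replicate 1, 3 or 4 of 1.0 Gy, and 1 after repeated quantile normalization.

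Among membrane and skeleton genes, Slc4a1, the band 3 anion exchanger, read 10.23, 10.13, 10.35 and 10.35 at 0.5 Gy and 8.86, 9.67, 9.56 and 9.53 at 1.0 Gy. The doses did not overlap, and the difference was -0.86 ± 0.24 (limma adjusted p = 0.287). Tspan33, a tetraspanin of erythroid precursors that activated B cells also make, differed by -0.73 ± 0.15 (8.52 ± 0.19 against 7.79 ± 0.09, adjusted p = 0.0795), and all 4 of its probe sets had that sign. Epb42, protein 4.2, which ties band 3 to the skeleton, lay at 5.20 ± 0.24 and 4.44 ± 0.51. Gypc, the skeleton-linked glycophorin C, lay on the other side at 5.78 ± 0.11 and 6.17 ± 0.17.

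Prdx2, the main peroxiredoxin of red cells, read 10.01, 9.84, 9.99 and 10.09 at 0.5 Gy and 9.48, 9.29, 9.60 and 9.28 at 1.0 Gy, a difference of -0.57 ± 0.14 (limma adjusted p = 0.176). Car2, carbonic anhydrase, differed by -0.72 ± 0.21, Bpgm, which makes the haemoglobin effector bisphosphoglycerate, by -0.54 ± 0.19 and catalase, Cat, by -0.36 ± 0.15. The maturation genes Trim10 and Ube2o, the latter a ubiquitin enzyme that clears ribosomes from reticulocytes, differed by -0.71 ± 0.21 and -0.81 ± 0.30 (-0.54 for Ube2o with the 18S covariate). Alas2, the first enzyme of haem synthesis in red cells, differed by -0.16 ± 0.10 (13.85 ± 0.05 against 13.69 ± 0.03). Gata1, Tal1 and Nfe2, transcription factors that megakaryocytes and red cells share, lay on the higher side by 0.48 ± 0.18, 0.38 ± 0.16 and 0.42 ± 0.17. All red cell genes named here except Tspan33, Prdx2 and Slc4a1 were named after their values were seen.

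Upstream stretches of a membrane gene and a maturation gene on the lower side are shown because they hold AGATAA, a binding motif of the GATA family, read here on the opposite strand and marked in capitals. Both are RefSeq sequence with GRCm38.p6 coordinates, chr2:121037083-121037118 (- strand, 226 bases before the start) for Epb42 and chr17:36869396-36869431 (+ strand, 163 bases before the start) for Trim10.
Epb42: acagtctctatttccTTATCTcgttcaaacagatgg
Trim10: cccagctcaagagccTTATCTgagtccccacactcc
The motif lay in 11.2% of all windows and, counted by gene, in 12.7% of the 27025 genes with a window. By gene it lay in 12 of the 31 tested red cell members with a window, and in 4 of the 10 of those that were lower at an unadjusted p under 0.05. Such a short motif recurs by its letters alone, and a match is a description only.

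**Figure D4:**
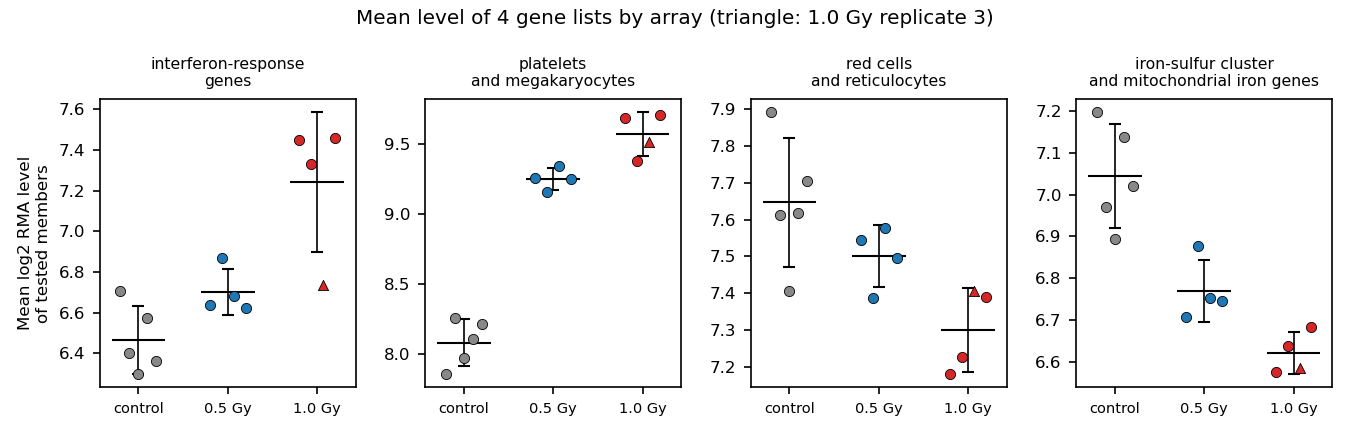
Mean log2 RMA level of the tested members of 4 gene lists in each mouse (5 controls, 4 of 0.5 Gy, 4 of 1.0 Gy), with group means and SDs; the triangle is replicate 3 of 1.0 Gy. In the interferon panel that mouse lies at 6.74, below the other 1.0 Gy mice at 7.33 to 7.46, and in the platelet panel every 1.0 Gy mouse lies above every 0.5 Gy mouse.

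Target genes of p53 lay mostly on the higher side at 1.0 Gy, by small differences. Of 35 tested targets 6 were higher at an unadjusted p under 0.05 (17.1%, against 3.16% of all genes). None was lower and none was called, with a median difference of 0.19 and 29 members above 0. The mean level of the list was 5.58, 5.74, 5.61 and 5.65 at 0.5 Gy. At 1.0 Gy it was 5.90, 5.88, 5.64 and 5.81, where replicate 3 lay within the range of 0.5 Gy. The count of 6 depended on single mice. It was 10 without replicate 3 of 1.0 Gy (5.88% of all genes). It was 3 without replicate 1, 3 or 4 of 0.5 Gy (4.23%, 4% and 4.54% of all genes in either direction). Without replicate 1 or 2 of 1.0 Gy it was 2 (3.02% and 6.05%). With the 18S level as a covariate it was 3. Ccng1, cyclin G1, a feedback regulator of p53, read 6.6, 6.88, 6.84 and 6.76 at 0.5 Gy and 7.26, 7.17, 6.78 and 7.30 at 1.0 Gy, where replicate 3 overlapped the lower dose, with 5.89 ± 0.27 in controls. Cdkn1a, the p21 inhibitor of cyclin-dependent kinases, read 5.60, 5.33, 5.53 and 5.49 against 5.84, 5.84, 5.49 and 5.90, a difference of 0.28 ± 0.16 (95% interval -0.06 to 0.63), with 4.61 to 5.25 in controls. Cd80, a costimulatory ligand, and Plk2, a stress-regulated kinase, differed by 0.27 ± 0.10 and 0.31 ± 0.12. Plk2 was -0.081 when read from its most variable probe set. Phlda3, an inhibitor of AKT, and Dglucy differed by 0.32 ± 0.15 and 0.31 ± 0.14. Bbc3, the death gene PUMA, differed by 0.09 (95% interval -0.19 to 0.38) and Mdm2, the p53 ubiquitin ligase, by 0.13, a sign that turned in its other probe sets. Cdkn1a, Phlda3, Dglucy, Bbc3 and Mdm2 were chosen after their values were seen.

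Counts of lymphocyte genes stayed near or below the share over all genes. Among 39 B cell genes 1 was lower at an unadjusted p under 0.05 (2.63% of all genes) and none was higher (3.16%), with a median of 0.05. Among 34 T cell genes none reached that limit, with a median of -0.05. Median standard errors were 0.27 for B cell and 0.22 for T cell genes, against 0.15 over all genes, so small differences could be missed. The lower B cell gene was Cd24a, a surface glycoprotein that red cell precursors carry too, at 12.36 ± 0.07 against 11.92 ± 0.08, with no overlap (limma adjusted p = 0.719). Ms4a1, CD20, lay at 9.51 ± 0.46 and 9.91 ± 0.29, a difference with a 95% interval of -0.45 to 1.25. The T cell genes with the smallest p were Prkcq, the kinase of T cell receptor signalling that platelets also make (0.28 ± 0.16), and Cd8b1, the CD8 beta chain (-0.49 ± 0.27), and both overlapped between the doses. Cr2, complement receptor 2 of B cells, differed by -0.28 ± 0.20 and by 0.087 without replicate 2 of 0.5 Gy and replicate 3 of 1.0 Gy.

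Of 28 genes of NK and cytotoxic cells 2 were higher at an unadjusted p under 0.05 (3.16% of all genes), and the median was 0.15. Gzmb, granzyme B, read 5.59, 5.73, 5.69 and 5.43 at 0.5 Gy and 6.67, 5.22, 6.07 and 7.0 at 1.0 Gy. Replicate 2 of 1.0 Gy was the lowest of the 8 mice and the other 3 were the highest. Tbx21, the factor T-bet, read 5.36, 4.55, 4.83 and 5.57 at 1.0 Gy against 4.46 to 4.84 at 0.5 Gy, so that replicates 2 and 3 overlapped the lower dose. Without replicate 2 of 1.0 Gy 11 members were higher, in a fit where 6.05% of all genes reached that limit in either direction, whereas the count was 1 without replicate 3 of 0.5 Gy and 0 without replicate 4 of 0.5 Gy or replicate 1 or 4 of 1.0 Gy.

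Of 35 monocyte genes 6 were higher at an unadjusted p under 0.05 (3.16% of all genes) and none lower, with a median of 0.30 and 31 above 0, but in none did the doses separate. Ms4a6d, a membrane protein of monocytes and macrophages, read 3.55, 4.18, 3.74 and 4.02 at 0.5 Gy and 5.27, 4.99, 4.00 and 4.66 at 1.0 Gy. Fcgr4, an activating IgG receptor, read 5.52, 5.93, 5.42 and 5.61 against 6.80, 6.59, 5.67 and 6.43, and Cebpb, a myeloid transcription factor, differed by 0.68 ± 0.26. In Ms4a6d and Fcgr4 the only overlapping mouse of 1.0 Gy was replicate 3, and without it 16 monocyte genes were higher (5.88% of all genes). Only 3 were higher without replicate 3 of 0.5 Gy or replicate 1 or 4 of 1.0 Gy. In those fits 4%, 3.02% and 4.06% of all genes reached that limit in either direction.

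Of 36 genes of mature neutrophils 3 were higher (3.16% of all genes) and 3 lower (2.63%) at an unadjusted p under 0.05. The median was 0.09, with 22 members above 0 and 14 below. Slc2a3, a glucose transporter that platelets share, differed by 0.51 ± 0.16 (0.24 with its probe sets averaged), Grina, a membrane protein, by -0.55 ± 0.17 (-0.35), and Wfdc21, a secreted antiproteinase-like protein, by -0.89 ± 0.31. Wfdc21 stood at 7.46 in replicate 2 of 0.5 Gy and between 5.78 and 5.92 in the other 3 mice of that dose, and its difference was -0.49 without that mouse. The mean level of the list was 8.01 in replicate 2 of 0.5 Gy and 7.08 to 7.17 in the other 3 mice of that dose. The 3 higher genes became 1 in 7 of the 17 fits that leave out 1 array (control replicate 3, replicates 1, 3 and 4 of 0.5 Gy, replicates 1 and 2 of 1.0 Gy and replicate 1 of 3.0 Gy). In those fits 3.02% to 6.05% of all genes reached that limit in either direction. The higher count was 5 without replicate 2 of 0.5 Gy (7.71% of all genes in either direction). The 3 lower genes became 5 without replicate 2 of 1.0 Gy (6.05% of all genes in either direction).

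At an unadjusted p under 0.05, where 3.16% of all genes were higher, immature granulocytes had 1 higher gene of 18. It was Tuba4a, a tubulin also found in platelets (9.04 ± 0.06 against 9.60 ± 0.36, a difference of 0.55, or 0.30 with its probe sets averaged). Of 22 dendritic cell genes 3 were higher, among them Cst3, cystatin C (0.52 ± 0.17), and Bst2, tetherin, which interferon also raises (0.39 ± 0.12). Among 17 genes of MHC class I and the immunoproteasome 1 was higher, H2-T24 (0.57 ± 0.22), but all 17 lay above 0 with a median of 0.19. That contrasts in size with MHC class II, where 9 of 17 lay above 0 with a median of 0.00, although the difference between these lists was not tested. The class I count was 4 without replicate 3 of 1.0 Gy (5.88% of all genes) and 0 without replicate 1 or 4 of that dose. It was 2 or 3 without replicate 1 or 5 of the controls, 2 of 0.5 Gy or 2 or 3 of 3.0 Gy. Counts of 1 in the other small lists described here also ran between 0 and 4 when single arrays were left out.

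Stress and inflammation lists stayed near the background, which over all genes was 3.16% higher and 2.63% lower at an unadjusted p under 0.05. Of 29 NF-kB and inflammatory genes 1 was lower, Sod2, the mitochondrial superoxide dismutase (6.94 ± 0.08 against 6.45 ± 0.11, no overlap, limma adjusted p = 0.236), and none higher. No immediate early gene of 29 reached an unadjusted p under 0.05, and Egr1, Atf3 and Klf4 differed by 0.35 ± 0.22, 0.24 ± 0.13 and 0.33 ± 0.21. Of 24 heat shock genes 1 was lower, Dnajb6, a chaperone against protein aggregation, with 9.50, 9.17, 9.54 and 9.16 at 0.5 Gy and 8.73, 8.56, 8.74 and 8.90 at 1.0 Gy (difference -0.61 ± 0.13, limma adjusted p = 0.103). Hsp90aa1 differed by 0.30 ± 0.16 in its brightest probe set and by -0.019 in its most variable one. Apoptosis regulators had 1 higher gene of 35, the TNF receptor Tnfrsf1b (0.41 ± 0.19), and a median of 0.09.

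**Figure D5:**
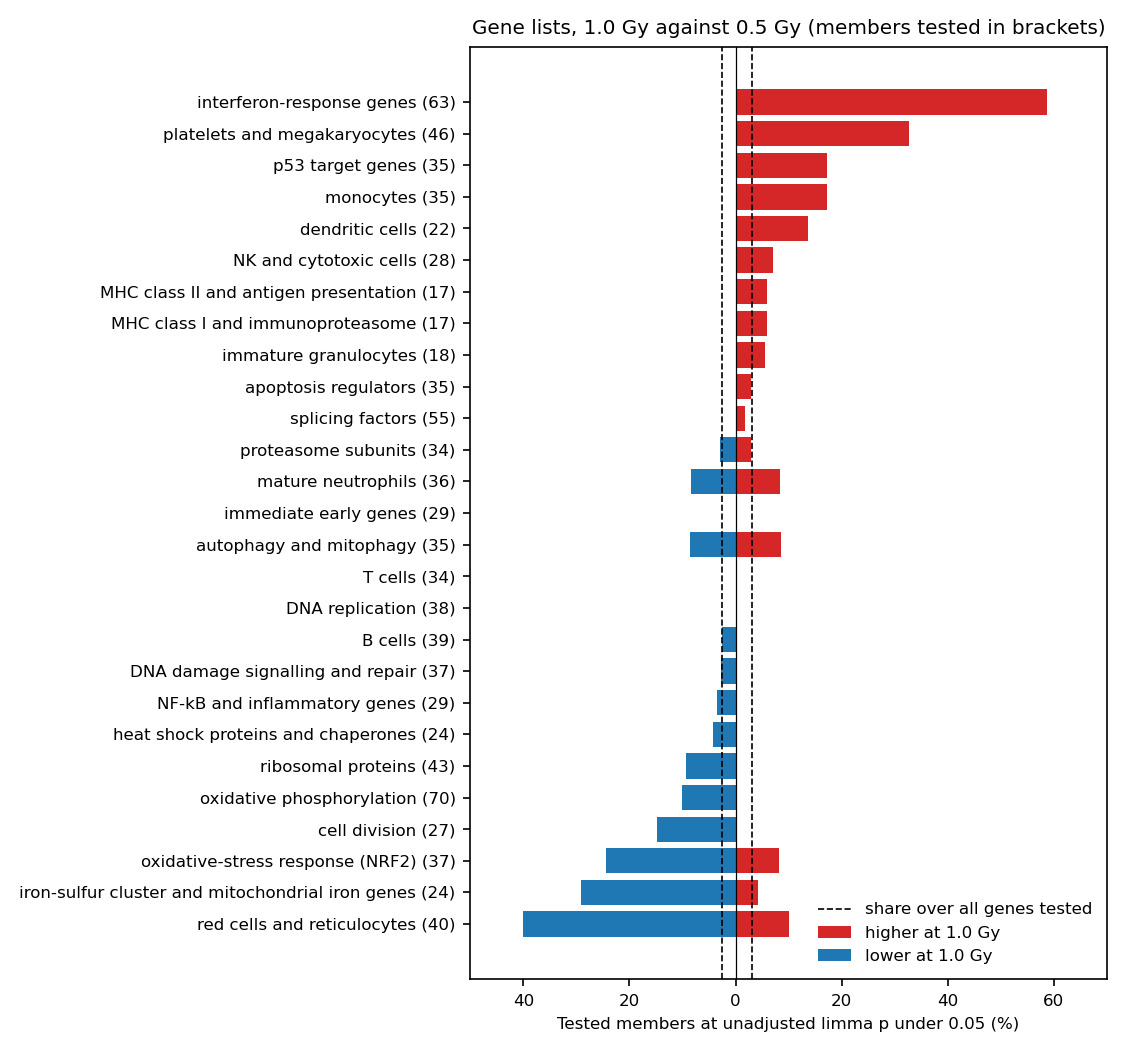
Share of the tested members of each of 27 gene lists at an unadjusted limma p under 0.05, to the right for higher and to the left for lower at 1.0 Gy; dashed lines are the shares over all genes tested, 3.16% and 2.63%. The interferon list reaches 58.7% on the higher side, and the red cell list has 16 of 40 members on the lower side.

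Genes of oxidative defence lay on both sides. Of 37 tested members of the oxidative-stress list 9 were lower (2.63% of all genes) and 3 higher (3.16%) at an unadjusted p under 0.05, 1 was called (Glrx5, against 0.0158%), and the median was 0.07. Several members on the lower side are also members of the red cell list, such as Prdx2 and Cat. Gpx1, the main glutathione peroxidase of red cells, read 13.18, 13.13, 13.20 and 13.20 at 0.5 Gy and 12.78, 12.73, 12.88 and 12.71 at 1.0 Gy, a small difference of -0.40 ± 0.09 without overlap (limma adjusted p = 0.13). Txnrd2, the mitochondrial thioredoxin reductase, differed by -0.67 ± 0.18, and all 4 probe sets had that sign. Gstm5, a glutathione transferase, differed by -0.51 ± 0.17. The 3 higher genes became 0 without replicate 1 or 4 of 1.0 Gy and 1 without replicate 1 or 3 of 0.5 Gy.

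Mitochondria and ribosomes gave small counts on the lower side. Of 70 tested genes of oxidative phosphorylation 7 were lower (2.63% of all genes) and none higher at an unadjusted p under 0.05, with a median of -0.03. In 6 of them all arrays of 1.0 Gy lay below those of 0.5 Gy (1.97% of all genes). Atp5b, the catalytic beta subunit of ATP synthase, read 10.33, 10.14, 10.33 and 10.06 at 0.5 Gy and 9.66, 9.76, 9.59 and 9.70 at 1.0 Gy (difference -0.54 ± 0.12, limma adjusted p = 0.105). Cox6c, a subunit of cytochrome oxidase, was tight at 10.08 ± 0.04 at 0.5 Gy and spread from 8.66 to 9.91 at 1.0 Gy. The count of 7 became 2 to 4 without any 1 of the 4 mice of 0.5 Gy, of replicates 1, 2 and 4 of 1.0 Gy or of replicate 1 of 3.0 Gy, and 11 after repeated quantile normalization. Of 43 ribosomal protein genes 4 were lower (2.63% of all genes) and none higher, with a median of -0.09, and 1 was lower without replicate 1 of 1.0 Gy, whereas 12 were lower with the 18S level as a covariate (median -0.19). Rpl22, a subunit of the large ribosome, lay at 11.10 ± 0.31 and 10.48 ± 0.35, but its most variable probe set gave a difference of 0.13 and the mean of its probe sets -0.38. Rps7 and Rps27 of the small subunit differed by -0.35 ± 0.16 and -0.32 ± 0.13.

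Among proliferation genes, 4 of cell division lay on the lower side, while that list as a whole was centred near 0. Of 27 cell division genes 4 were lower (2.63% of all genes) and none higher at an unadjusted p under 0.05. The median was -0.01, with 13 members above 0 and 14 below. None of 38 DNA replication genes reached that limit, and the difference between these lists was not tested. Ube2c, the ubiquitin enzyme of the anaphase-promoting complex, read 10.36, 10.04, 10.59 and 10.30 at 0.5 Gy and 9.54, 9.45, 9.72 and 9.50 at 1.0 Gy. These groups did not overlap (difference -0.77 ± 0.17, limma adjusted p = 0.105), and the controls, at 10.40 ± 0.28, covered the values of 0.5 Gy. Nusap1, a spindle protein, read 7.70, 7.51, 8.11 and 7.64 against 6.59, 6.78, 7.12 and 6.95 (difference -0.88 ± 0.24, limma adjusted p = 0.268), or -0.49 with its probe sets averaged. Ccna2, cyclin A2, differed by -0.54 ± 0.18, and the replication genes Dut, Tk1 and Rfc5 by 0.39 ± 0.28, -0.18 ± 0.13 and -0.17 ± 0.13. Of 37 DNA repair genes 1 was lower, Xrcc3 of homologous recombination (-0.45 ± 0.18), and the count ran from 0 to 3 when single mice were left out, with 3 without replicate 3 of 1.0 Gy.

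Of 35 genes of autophagy and mitophagy 3 were higher (3.16% of all genes) and 3 lower (2.63%) at an unadjusted p under 0.05. The median was 0.01, with 18 members above 0 and 17 below. Gabarapl2, an ATG8 protein that reticulocytes use to clear organelles, read 12.13, 11.94, 12.18 and 12.03 at 0.5 Gy and 11.56, 11.36, 11.72 and 11.69 at 1.0 Gy, a difference of -0.49 ± 0.11 (limma adjusted p = 0.134) without overlap. Its relative Map1lc3b differed by -0.42 ± 0.12 in its brightest probe set, but 2 of its 4 probe sets had the opposite sign. Lamp1, a lysosomal membrane protein, lay at 9.99 ± 0.05 and 10.46 ± 0.22, also without overlap. Without replicate 3 of 1.0 Gy the higher count in the list was 6 (5.88% of all genes). Proteasome genes had 1 of 34 on each side, Psmd11 (0.40 ± 0.18) and Psmf1 (-0.50 ± 0.15), and splicing factors 1 of 55, Hnrnpab, with a difference of 0.71 ± 0.20 in its brightest probe set and 0.13 with its probe sets averaged.

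Outside the lists, Prkaca, the catalytic subunit of protein kinase A, was among the 5 genes with the smallest p on the higher side. It read 6.79, 6.86, 6.88 and 6.97 at 0.5 Gy and 7.87, 7.26, 7.42 and 7.64 at 1.0 Gy (difference 0.67 ± 0.13, limma adjusted p = 0.0795), from a probe set that may bind related transcripts. With its probe sets averaged the difference was 0.40. Several further genes passed an adjusted p of 0.1 on the lower side and were named for that reason after their values were seen. They include Cdr2 (-0.91 ± 0.18), Specc1 (-1.01 ± 0.20), the ubiquitin pathway genes Ubac1 (-0.83 ± 0.17), Mkrn1 (-0.45 ± 0.09), Usp15 (-0.92 ± 0.19) and Marchf3 (-0.73 ± 0.15), the E2F partner Tfdp2 (-0.70 ± 0.14), the antizyme inhibitor Azin1 (-0.73 ± 0.15), the poly(A)-binding protein Pabpc4 (-0.74 ± 0.16), the mitochondrial protein Ghitm (-0.74 ± 0.15) and Memo1 (-0.70 ± 0.14). With probe sets averaged, Specc1, Usp15, Marchf3 and Tfdp2 differed by -0.60, -0.32, -0.36 and -0.45. For Cdr2 the mice of 0.5 Gy lay between 11.13 and 11.33 and those of 1.0 Gy between 10.26 and 10.44, while the controls, at 11.26 ± 0.36, spanned the 0.5 Gy values.

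Fold size alone picked a different set. Only 7 genes were at least 2-fold higher at 1.0 Gy at any p, of which 5 are interferon-response genes (Ifit1, Ifit3, Oasl1, Parp12 and Usp18) and the others C1qb and Saa3, while Alb and Specc1 were at least 2-fold lower. Saa3, an acute-phase protein, read 5.78, 7.82, 5.89 and 10.19 at 0.5 Gy and 10.25, 10.69, 7.63 and 5.85 at 1.0 Gy. C1qb, a complement subunit made by macrophages, read 5.06, 5.51, 4.92 and 7.54 against 8.56, 8.46, 5.35 and 4.66. These spread over several units within each dose, and with Alb, the liver protein albumin, their unadjusted limma p-values lay between 0.248 and 0.288. Their SDs within a dose, 1.17 to 2.28, were all larger than the gene's difference between doses (-1.10 for Alb, 1.18 for Saa3 and 1.00 for C1qb).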

How the data were processed

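Each of the 17 mice gave 1 array. The authors deposited log2 values made with RMA, and the submitters' processing notes also name R 3.3.2; its settings are not given in the sources used. Symbols came from the platform annotation (932 probe sets had several, 9160 none, 64 were controls); updating 34741 through RefSeq changed 0. Tests used limma 3.58.1 in R 4.3.3 on the deposited log2 values, with 4 group means over 17 arrays, the contrast 1.0 minus 0.5 Gy, two-sided tests and Benjamini-Hochberg adjustment over 12696 genes (adjusted p under 0.05 for a call). The code was tested on simulated data.

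Comparison, members and the 27 gene lists were chosen with earlier results of these data known, so lists are described by counts and medians, with no test. Genes named by rule were called genes, the 5 with the smallest p in each direction and 3 to 6 members per list with the smallest p. RMA equalises arrays, so a shift of most genes would be partly removed, and dim genes are understated. 1210 tested genes rest on _x_at or _s_at probe sets, open to cross-hybridisation with related transcripts (here Prkaca, Slc4a1, Tspan33, Fermt3, Ms4a6d, Slc2a3, C1qb, Pabpc4, Rpl22 and others). No batch label was available to the fit. The number of arrays limits the precision.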

Additional observations from a re-analysis of the deposited data

Results flagged for a closer look

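In 354 groups of 4 mice (2 doses, each named gene, list mean or array measure) the highest or lowest mouse was set against the rest, and its gap to the nearest mouse exceeded Dixon's 95% limit, as a share of the group's range, in 19. For independent groups chance gives about 1 in 20. These groups share the same arrays, and list means hold some of the named genes, so the number cannot be judged against that share. Of the 19, 10 lay at 0.5 Gy and 9 at 1.0 Gy. Of the latter, 6 concern replicate 3: the highest Glrx5 level (10.27), the lowest levels of Nlrc5 (6.04), Parp12 (4.28) and Cdkn1a (5.49), the lowest mean of the apoptosis list (5.86) and the highest 25th percentile of the array (2.51). In replicate 1 of 1.0 Gy the lowest levels of Slc4a1 (8.86), Rpl22 (9.97) and Snrpe (7.2), a core splicing protein, stood apart.

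At 0.5 Gy, replicate 2 held the highest levels of Wfdc21 (7.46), Chil3 (7.53), Cr2 (5.46) and Irf1 (8.02), the highest mean of the mature neutrophil list (8.01) and the lowest level of Blvrb (8.67), a biliverdin reductase of red cells. In replicate 3, Glo1 (8.78) and Thbs1 (10.19) were highest, and in replicate 1 Atf3 (4.31) and Rasgrp2 (8.83) were lowest. The causes were not tested.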

How the results depend on the processing

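The comparison was run under 30 other settings, of which 17 left out 1 array. Against 2 calls, there were 9 from a fit to the 8 arrays of both doses, 1 without the 3.0 Gy arrays, 8 with the most variable probe set per gene, 1 with the mean of all probe sets, 25 after repeated quantile normalization, 199 with array weights, 46 with replicate 2 of 0.5 Gy and replicate 3 of 1.0 Gy both left out, 24 at an adjusted p under 0.1 and 0 with a trended robust prior or the 18S covariate. Leaving out 1 array gave 0 to 42. Replicate numbers did not pair the arrays (correlations of deviations -0.28, 0.36, 0.36 and -0.22, and not every array correlated best with its own number); with the replicate block there were 2 calls. Array weights gave 0.484 to replicate 3 of 1.0 Gy and 0.583 to replicate 2 of 0.5 Gy.

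Glrx5 lost its call, at -0.92 and -0.89, with the trended robust prior and with 18S, and Hagh at -0.91, -0.92, -0.91, -0.78 and -0.80 with these, without the 3.0 Gy arrays, and with the most variable or the mean probe set; leaving out 1 array gave -0.98 to -0.87 for Glrx5 and -1.01 to -0.85 for Hagh. The 15 higher platelet genes were 24 in the 8-array fit and 24 with array weights, and 6 to 19 with 1 array left out; the 16 lower red cell genes were 9 with 18S and 7 to 16 with 1 array left out. The 37 higher interferon genes and the 7 lower iron-sulfur genes at an unadjusted p under 0.05 stayed within 1.5 times.

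Signs turned for 7 of 144 named genes, none of them called. With the most variable probe set the differences were -0.081 for Plk2, -0.019 for Hsp90aa1, 0.13 for Rpl22, 0.13 for Casp9, 0.28 for Map1lc3b and -0.15 for Mdm2; with the mean probe set they were 0.030 for Map1lc3b and -0.025 for Mdm2. Cr2 was 0.087 with both arrays left out. The causes were not tested.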
